A study of Homo sapiens with 24 samples.

Results

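Semaphorins are guidance proteins that are secreted or sit in the cell membrane, and plexins are their receptors. The genes described here are 5 semaphorin genes, 4 plexin genes and the co-receptor gene NRP1, whose RNA was measured in A549 cells, a line from a human lung carcinoma, and Huh7 cells, a line from a human hepatocellular carcinoma. The 10 genes were chosen by name from a family of 31 semaphorin, plexin and neuropilin genes, and a gene was taken in a line when its mean exceeded 5 counts over the 12 libraries of that line. All 10 passed in A549 and 9 passed in Huh7, out of 14585 genes in the count table. PLXNB3 did not pass in Huh7, with a mean of 1.17 counts, while SEMA3B had the lowest mean of those that passed there, 52.7 counts. Near the same limit in A549, SEMA6A, which is not among the 10, had a mean of 5.17 counts and passed, and SEMA3D had 4.33 and did not. The names were picked with earlier results of these data known, so the fold changes and adjusted p-values given for them are a description and not independent support.

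Cells of each line, given the genotype WT in the labels, served as control or received the extract of 1 of 3 herbs, Pulsatilla chinensis, Bupleurum chinense or Polyporus umbellatus. Each of the 8 groups had 3 libraries of ribosome-depleted total RNA, 24 in all. The labels name neither the dose and time of the sequenced cells nor a vehicle for the controls, and do not say whether replicates were separate cultures, so p-values measure only the spread between these libraries, which may be technical. Each line is a single established cell line, and a library is an average over its culture, so less RNA per cell and fewer cells carrying an RNA cannot be told apart. Every herb was compared with the same 3 control libraries of its line, so the 3 comparisons of a line are not independent of each other.

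The libraries held between 6803704 and 24345541 counts. The labels of the lines were checked on marker genes. The 10 hepatocyte genes summed to between 14400 and 24500 CPM in Huh7 and to between 71.8 and 151 CPM in A549. CPM sets counts against the total of the library on the usual scale, and the sums of marker genes carry no further scaling. CPM values in later paragraphs are given after TMM scaling, which evens out differences in composition. The 8 epithelial genes known from A549 summed to between 13000 and 17000 CPM in A549 and to between 4400 and 7120 CPM in Huh7. Not every gene of this list marked A549. Unscaled mean counts in A549 and Huh7 were 16434 and 0.3 for KRT7 and 34168 and 106 for AKR1B10. They were 20.2 and 132 for EPCAM, 336 and 514 for KRT19, 34659 and 45585 for KRT8 and 20152 and 21452 for KRT18. Of 5 markers of differentiated lung cells, 1 was a row of the table, SFTPB. It was at 0.99 to 2.73 CPM in A549 and at 2.13 to 5.27 CPM in Huh7, so it did not mark A549. The P. umbellatus libraries of Huh7 stood apart from all others by GC content. Genes whose main transcript has 60 to 70% GC (1964 genes) had a median log2 fold change of -0.67 against control there and those under 45% GC (5517 genes) a median of 0.29, whereas in the other 5 comparisons with control the medians of both classes lay between -0.06 and 0.09. Replicate 2 of that group was the farthest, with a median of -1.29 for the GC-rich genes against -0.60 and -0.37 in replicates 1 and 3.

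Class 3 semaphorins are secreted and bind neuropilins, which pair with A-type plexins to carry the signal into the cell. Class 4 and class 6 semaphorins span the membrane, and class 4 members are known ligands of the B-type plexins. Bound plexins act on small GTPases, which alters the actin skeleton and the hold of integrins on the matrix, and in carcinoma cells the family is best known for its part in migration and invasion. PLXNB1 and PLXNB2 respond to SEMA4 ligands, PLXNB3 is known as a receptor for SEMA5A, and PLXNA1 works with NRP1 for SEMA3 ligands.

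The promoters of PLXNB3, PLXNB2 and SEMA4B are shown because these 3 members had the largest rises in A549 and rose with every herb there. Each is the 250 bases before the start of transcription in RefSeq (GRCh38.p14), read in the direction of the gene. Capitals mark the GC box, GGGCGG or its reverse complement CCGCCC, the letters bound by factors of the SP1 family. The PLXNB3 window lies at chrX:153763999-153764248 on the plus strand, the PLXNB2 window at chr22:50301670-50301919 on the minus strand, and the SEMA4B window at chr15:90201080-90201329 on the plus strand. RefSeq gives 3 windows for SEMA4B, and the window shown lies before the start of its main transcript in GENCODE.
PLXNB3: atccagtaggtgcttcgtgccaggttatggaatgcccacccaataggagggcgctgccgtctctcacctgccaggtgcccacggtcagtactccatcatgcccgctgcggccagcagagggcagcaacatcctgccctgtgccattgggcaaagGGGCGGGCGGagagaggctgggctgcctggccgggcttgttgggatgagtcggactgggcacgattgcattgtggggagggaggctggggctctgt
PLXNB2: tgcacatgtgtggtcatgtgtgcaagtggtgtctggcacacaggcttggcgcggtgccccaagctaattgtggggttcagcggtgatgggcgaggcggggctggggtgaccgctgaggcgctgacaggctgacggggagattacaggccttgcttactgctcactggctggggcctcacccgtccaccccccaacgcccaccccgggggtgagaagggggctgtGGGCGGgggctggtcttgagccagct
SEMA4B: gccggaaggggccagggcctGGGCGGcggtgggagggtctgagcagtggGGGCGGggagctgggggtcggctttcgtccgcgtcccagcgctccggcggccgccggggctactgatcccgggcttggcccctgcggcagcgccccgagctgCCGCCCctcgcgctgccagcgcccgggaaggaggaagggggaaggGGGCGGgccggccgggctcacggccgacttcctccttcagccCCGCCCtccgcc
In GENCODE v44, on the same build, PLXNB3 spans chrX:153764196-153779346, PLXNB2 chr22:50274979-50307646 and SEMA4B chr15:90160604-90229679. The PLXNB2 and SEMA4B windows shown lie wholly in introns of longer transcripts of their genes, and the last 53 bases of the PLXNB3 window fall in an annotated exon of PLXNB3. The PLXNB3 window held 2 GC boxes that overlap by 2 bases, the PLXNB2 window 1 and the SEMA4B window shown 5. The other SEMA4B windows, at chr15:90184670-90184919 and chr15:90191671-90191920, held 3 and 0 GC boxes at 72% and 54% GC. In the windows shown, GC content was 64.4%, 66.4% and 79.2%, against a median of 58% over all RefSeq promoter windows. A GC box stood in 42.6% of the 35116 windows of this length. Neither the AP-1 letters TGANTCA, found in 6.57% of all windows, nor the E-box CACGTG, found in 6.34%, occurred on either strand in any window of the 8 members that had an entry. NRP1 and SEMA6B are named only.

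In untreated cells the lines differed in the levels of several members, and 9 of the 10 were measured in both. On the scale of CPM per kilobase of the main transcript, which allows genes to be compared, NRP1 was highest in both lines, at 81.1 ± 1.8 (SD, n = 3) in A549 and 60.9 ± 1.3 in Huh7. In A549 it was followed by SEMA3C at 58.2 ± 1.2, PLXNB2 at 34.3 ± 2.0, SEMA4B at 22.8 ± 0.71 and PLXNA1 at 11.9 ± 0.71. PLXNB1 at 5.33 ± 0.62, SEMA6B at 4.73 ± 1.01 and SEMA4C at 4.41 ± 1.2 came next, and among these 3 neighbours differed by less than the sum of their SDs. The lowest levels in A549 were SEMA3B at 2.44 ± 0.37 and PLXNB3 at 0.280 ± 0.035. In Huh7 the second gene was SEMA6B at 56.6 ± 2.9, within the sum of the SDs from NRP1, and PLXNB2 stood at 39.5 ± 0.33, PLXNB1 at 28.5 ± 1.7, SEMA4C at 15.4 ± 1.4 and PLXNA1 at 14.5 ± 0.46, of which the last pair did not differ beyond their SDs. The other members measured in Huh7 were low, SEMA4B at 4.52 ± 0.31, SEMA3C at 2.29 ± 0.18 and SEMA3B at 0.924 ± 0.43.

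Of the 10 members, the secreted ligands SEMA3C and SEMA3B and the membrane ligand SEMA4B were higher in untreated A549. PLXNB1, SEMA4C and SEMA6B were higher in untreated Huh7. Other secreted semaphorins of the family are not covered by this. Across all genes 70.7% differed between the untreated lines at an adjusted p below 0.05 (edgeR quasi-likelihood test), and 9 of the 10 members did. The log2 difference of A549 minus Huh7 was 4.65 (SE 0.12) for SEMA3C, 2.33 (SE 0.13) for SEMA4B and 1.35 (SE 0.34) for SEMA3B. It was -3.57 (SE 0.36) for SEMA6B, -2.41 (SE 0.19) for PLXNB1 and -1.80 (SE 0.20) for SEMA4C. NRP1 differed by 0.41 (SE 0.05), and PLXNB2 by -0.20 (SE 0.12) with an adjusted p of 0.147. The PLXNA1 difference of -0.29 had an adjusted p of 0.0464, which rose above 0.05 when any 1 of 20 of the 24 libraries was left out, with differences between -0.32 and -0.25. PLXNB3 had 49 counts in the 3 A549 controls and 2 in the 3 Huh7 controls, a ratio per total count of 51.1 (exact 95% interval 13.4 to 434, counting error only).

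**Figure D1:**
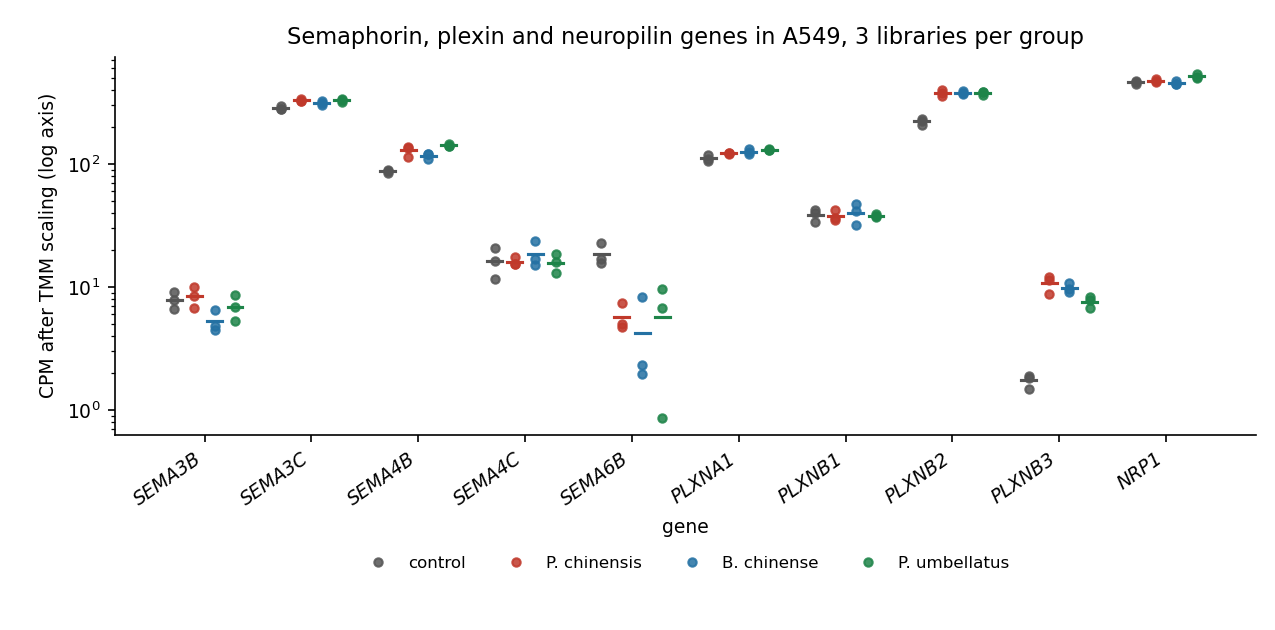
CPM after TMM scaling (log axis) of the 10 genes in A549, with 1 point per library, 3 libraries per group and the group mean as a bar. The 3 control points of PLXNB3 lie between 1.48 and 1.9 CPM and all 9 treated points between 6.69 and 11.9, and the SEMA6B points of the treated groups spread from 0.868 to 9.58.

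The first question was how each herb changed these genes in A549, beginning with the ligands. SEMA4B, a transmembrane ligand, was at 84.8, 87.6 and 88.4 CPM in the control libraries. It was at 135, 115 and 138 CPM after P. chinensis, at 121, 120 and 109 after B. chinense and at 140, 139 and 146 after P. umbellatus. All 9 treated libraries were above all 3 controls. On the log2 scale the change was 0.57 (SE 0.07, adjusted p = 1.63e-05) after P. chinensis, 0.42 (SE 0.07, adjusted p = 0.000343) after B. chinense and 0.70 (SE 0.07, adjusted p = 2.82e-06) after P. umbellatus. SEMA3C, a secreted ligand and the most abundant semaphorin of A549, rose by less. Its controls stood at 296, 281 and 281 CPM, against 340, 324 and 327 after P. chinensis, 325, 315 and 300 after B. chinense and 317, 330 and 336 after P. umbellatus. These groups did not overlap the controls either, although the rise was 15.7%, 9.81% and 14.6%. The adjusted p was 0.00207 after P. chinensis, 0.0354 after B. chinense and 0.0038 after P. umbellatus. After B. chinense it rose above 0.05 when B. chinense replicate 1 (0.136) or 2 (0.0905) or control replicate 2 (0.0941) or 3 (0.105) was left out.

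SEMA6B, a transmembrane ligand of A-type plexins, was the member that fell in A549. Controls held 16.7, 15.6 and 22.8 CPM. After P. chinensis the gene was at 7.38, 4.70 and 4.996 CPM, after B. chinense at 2.32, 1.94 and 8.33 and after P. umbellatus at 6.69, 9.58 and 0.868. No treated library reached the lowest control, and within the P. umbellatus group the values ran from 113 and 104 counts in replicates 1 and 2 down to 7 counts in replicate 3. The log2 fold changes had wide errors, -1.67 (SE 0.54, adjusted p = 0.0297) after P. chinensis, -2.14 (SE 0.57, adjusted p = 0.0118) after B. chinense and -1.61 (SE 0.54, adjusted p = 0.0364) after P. umbellatus. With DESeq2 the first and the last did not pass (adjusted p = 0.0767 and 0.0902). These calls depended on single libraries. After P. chinensis the adjusted p was 0.0898, 0.0894 and 0.0919 without P. chinensis replicate 2, replicate 3 or control replicate 3, and after B. chinense it was 0.0543 and 0.0566 without B. chinense replicate 1 or 2. After P. umbellatus it was 0.0603, 0.0567 and 0.11 without control replicate 1, 2 or 3, and 0.0703 and 0.0671 without P. umbellatus replicate 1 or 3, the fold change without replicate 3 being -1.17.

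SEMA3B and SEMA4C did not pass the test with any herb in A549. SEMA3B, a secreted semaphorin known as a candidate tumour suppressor of 3p21, was at 9.12, 6.59 and 7.81 CPM in controls and at 6.51, 4.43 and 4.82 CPM after B. chinense, a log2 difference of -0.55 (SE 0.24, adjusted p = 0.102). It was at 9.95, 8.39 and 6.76 CPM after P. chinensis and 8.52, 5.25 and 6.82 CPM after P. umbellatus, groups that overlapped the controls. SEMA4C, a known ligand of PLXNB2, varied among controls from 11.7 to 20.8 CPM, and its log2 fold changes lay between -0.05 and 0.20 with SEs near 0.21.

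PLXNB3, the B-type plexin that was lowest in A549, rose the most of the 10. The controls held 15, 15 and 19 counts, or 1.9, 1.48 and 1.83 CPM. After P. chinensis the gene reached 11.9, 8.69 and 11.4 CPM, after B. chinense 9.15, 10.8 and 9.65 and after P. umbellatus 6.69, 7.83 and 8.31. Every treated library was far above every control, and the 3 P. umbellatus libraries were below all those of the other herbs. The log2 fold change was 2.49 (SE 0.20, adjusted p = 3.56e-07) after P. chinensis, 2.38 (SE 0.21, adjusted p = 1.07e-06) after B. chinense and 2.01 (SE 0.20, adjusted p = 4.88e-06) after P. umbellatus. In size these exceeded the changes of 99.7%, 99.8% and 99.7% of the 13633 genes tested. The gene overlaps SRPK3 on the same strand and an antisense RNA in the annotation, neither of which is a row of the table, so reads from exons they share could be counted for PLXNB3.

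PLXNB2, the most abundant plexin of A549, rose by almost the same amount with each herb. Its controls were at 209, 230 and 225 CPM. Values were 399, 374 and 354 CPM after P. chinensis, 388, 375 and 369 after B. chinense and 362, 382 and 386 after P. umbellatus. The treated libraries formed a single narrow band above the controls. The fold change was 1.69, 1.70 and 1.70, or 0.76, 0.77 and 0.76 on the log2 scale, with an SE of 0.05 each and adjusted p of 7.41e-08, 1.47e-07 and 1.29e-07. PLXNA1, the A-type receptor that works with neuropilins, moved less, from 106, 111 and 117 CPM in controls to 122, 123 and 120 after P. chinensis, 132, 124 and 121 after B. chinense and 133, 130 and 129 after P. umbellatus. The log2 fold change was 0.13 (SE 0.05, adjusted p = 0.0689), 0.18 (SE 0.05, adjusted p = 0.0214) and 0.23 (SE 0.05, adjusted p = 0.00352) in this order. After correction for the GC content and length of transcripts in each library the PLXNA1 values were 0.04, 0.03 and 0.11, none of which passed the test, whereas those of PLXNB2 were 0.68, 0.64 and 0.65. Without control replicate 3 the P. chinensis change of PLXNA1 passed (adjusted p = 0.035), and without B. chinense replicate 1, control replicate 1 or control replicate 2 the B. chinense change did not (0.099, 0.0823 and 0.0553).

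PLXNB1, the receptor of SEMA4D, did not pass the test with any herb in A549. Controls were at 34.0, 39.6 and 42.0 CPM and the 9 treated libraries between 31.7 and 47.5 CPM, with log2 fold changes from -0.03 to 0.05. NRP1, the co-receptor of class 3 semaphorins and of VEGF, was at 471, 447 and 464 CPM in controls and at 509, 539 and 503 CPM after P. umbellatus, above all controls, a log2 fold change of 0.17 (SE 0.04, adjusted p = 0.00852). After P. chinensis and B. chinense its log2 fold changes of 0.04 and -0.02 did not pass.

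**Figure D2:**
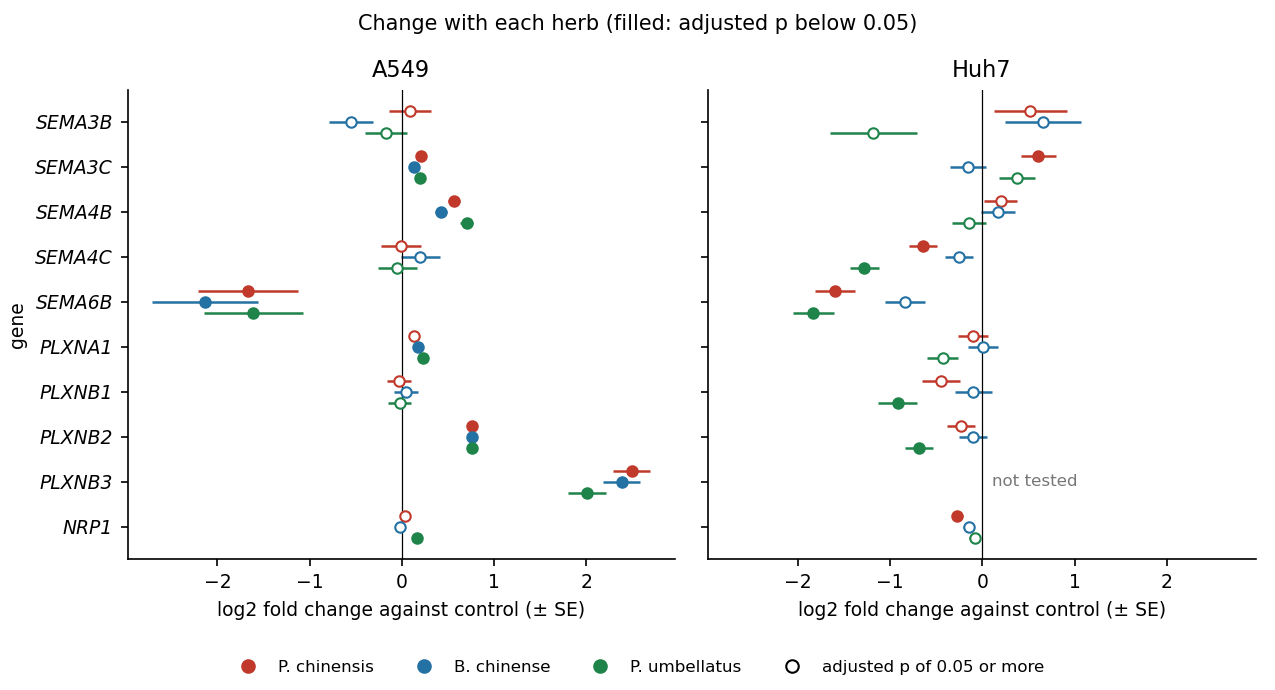
Log2 fold change against control with its SE for each gene and herb in A549 (left) and Huh7 (right), with filled points where the adjusted p is below 0.05. In A549 the PLXNB3, PLXNB2, SEMA4B and SEMA3C points lie above 0 and the SEMA6B points below 0 for all 3 herbs, while in Huh7 the called points other than SEMA3C lie below 0.

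By count, 4 of the 10 members were called higher and 1 lower after P. chinensis in A549, against 15.8% and 17.1% of all genes tested. After B. chinense 5 were higher and 1 lower, against 13.1% and 15% of all genes, and after P. umbellatus 6 were higher and 1 lower, against 13.4% and 14.8%. Since the members were chosen with results known, nothing is read from these shares. The median log2 fold change of the 10 was 0.11, 0.16 and 0.18 with the 3 herbs, against 0.01, 0.00 and -0.01 over all genes. The B. chinense count of 6 fell to 3 when B. chinense replicate 1 was left out. Over all genes, leaving out 1 library at a time gave 3071 to 3759 calls for B. chinense, against 3832 in the main fit.

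The herbs were also set against each other in A549. None of the 10 members differed between P. chinensis and B. chinense, where 1.45% of all genes did, or between P. chinensis and P. umbellatus, where 3.01% did (edgeR, adjusted p below 0.05). At an unadjusted p under 0.05 there were 1 and 2 members, against 1915 and 2185 of the 13633 genes tested. DESeq2 called 1 member in the second comparison and 607 of all genes. PLXNB3 was higher by 0.48 on the log2 scale (SE 0.18, adjusted p = 0.189) after P. chinensis than after P. umbellatus, and SEMA3B by 0.64 (SE 0.24, adjusted p = 0.216) than after B. chinense. For PLXNB2 the differences were -0.01 and 0.00, with an SE of 0.05 each.

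**Figure D3:**
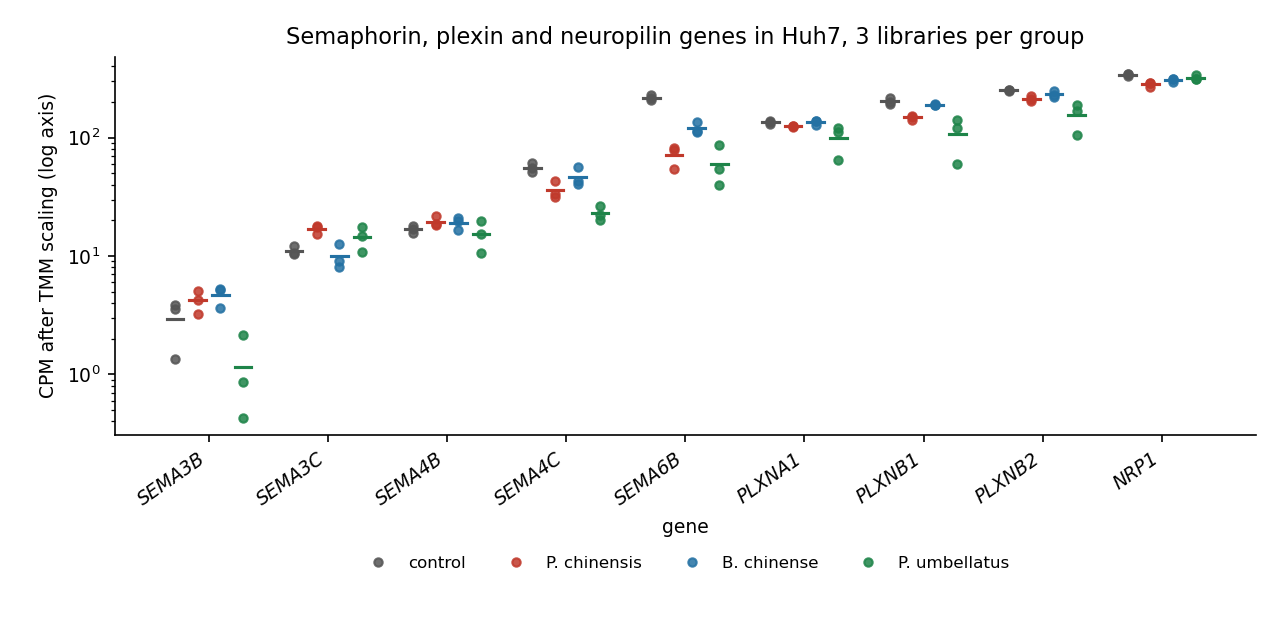
CPM after TMM scaling (log axis) of 9 genes in Huh7, with 1 point per library, 3 libraries per group and the group mean as a bar. PLXNB3 is not drawn because its libraries held 6 counts or fewer. The SEMA6B points run from 207 to 230 CPM in controls down to between 40.0 and 86.3 after P. umbellatus.

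In Huh7 the most abundant ligand, SEMA6B, fell the most. Controls were at 207, 215 and 230 CPM. The gene was at 54.6, 78.5 and 82.4 CPM after P. chinensis, at 137, 113 and 114 after B. chinense and at 54.7, 40.0 and 86.3 after P. umbellatus. The B. chinense libraries lay between the controls and those of the other herbs, without overlap on either side. The log2 fold change was -1.60 (SE 0.22, adjusted p = 0.000314) after P. chinensis, -0.84 (SE 0.22, adjusted p = 0.0917) after B. chinense and -1.83 (SE 0.23, adjusted p = 0.000477) after P. umbellatus. The B. chinense change passed when P. umbellatus replicate 2 (adjusted p = 0.0092) or replicate 3 (0.0136) was left out of the shared fit, and with DESeq2 (0.0118). With the correction for GC content and length the 3 values were -1.47, -0.76 and -0.84, all of which passed. By edgeR, though not by DESeq2 in A549, SEMA6B was called lower after P. chinensis and P. umbellatus in both lines. The change in A549 minus that in Huh7 was -0.04 after P. chinensis (SE 0.32, adjusted p = 0.958), a test that was not passed. It was -1.31 after B. chinense (SE 0.56, adjusted p = 0.149) and 0.34 after P. umbellatus (SE 0.56, adjusted p = 0.679), which did not pass either. With the correction the 3 values were -0.27 (adjusted p = 0.701), -1.59 (adjusted p = 0.0248) and -0.77 (adjusted p = 0.21), of which that of B. chinense passed.

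SEMA4C also fell in Huh7. It was at 51.4, 61.3 and 55.1 CPM in controls and at 31.2, 33.2 and 43.2 CPM after P. chinensis. After P. umbellatus it was at 20.03, 22.3 and 26.3 CPM, and after B. chinense at 56.4, 40.8 and 43.3 CPM. The B. chinense group overlapped the controls and the other groups did not. Log2 fold changes were -0.64 (SE 0.15, adjusted p = 0.00996) after P. chinensis, -0.26 (SE 0.15, adjusted p = 0.56) after B. chinense and -1.28 (SE 0.16, adjusted p = 0.000513) after P. umbellatus, the last of which was -0.67 (adjusted p = 0.0211) after the correction.

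SEMA3C, near 11 CPM in untreated Huh7, was the 1 member called higher there. The controls stood at 12.1, 10.7 and 10.5 CPM and the P. chinensis libraries at 15.3, 18.0 and 17.6 CPM, without overlap. It was at 12.7, 9.09 and 8.14 CPM after B. chinense and at 14.9, 17.7 and 10.9 CPM after P. umbellatus, both overlapping the controls. The log2 fold change after P. chinensis was 0.61 (SE 0.19, adjusted p = 0.0371). This call was lost when any 1 of the P. chinensis or control libraries or B. chinense replicate 2 was left out, with adjusted p between 0.0509 and 0.124. After P. umbellatus it was 0.38 (adjusted p = 0.144), 0.55 without P. umbellatus replicate 3 (adjusted p = 0.03) and -0.01 after the correction.

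SEMA4B and SEMA3B were low in Huh7 and did not pass the test against control in the fit of 12 libraries. SEMA4B was at 18.1, 17.0 and 15.8 CPM in controls and between 10.5 and 21.9 CPM in the treated libraries. SEMA3B held 27, 58 and 92 counts in controls and 7, 3 and 22 counts after P. umbellatus, a log2 fold change of -1.18 (SE 0.47, adjusted p = 0.0646). That difference passed without P. umbellatus replicate 3 (-1.96, adjusted p = 0.0101) or control replicate 1 (-1.51, adjusted p = 0.025), and with DESeq2 (-1.31, adjusted p = 0.0316), and was -0.55 (adjusted p = 0.402) after the correction.

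Among the receptors of Huh7, the B-type plexins were lower after P. umbellatus. PLXNB1 stood at 217, 199 and 193 CPM in controls and at 120, 59.9 and 140 CPM after P. umbellatus, lowest in replicate 2. PLXNB2 stood at 253, 249 and 252 CPM in controls and at 169, 106 and 190 CPM after P. umbellatus, again lowest in replicate 2. Both groups lay below all controls. Log2 fold changes were -0.92 (SE 0.21, adjusted p = 0.00646) for PLXNB1 and -0.69 (SE 0.15, adjusted p = 0.00571) for PLXNB2. Neither passed with only the 6 libraries compared, PLXNB1 at -0.95 (adjusted p = 0.0655) and PLXNB2 at -0.72 (adjusted p = 0.0607). PLXNA1 showed the same order of libraries, at 136, 138 and 130 CPM in controls and 113, 64.4 and 121 CPM after P. umbellatus, a log2 fold change of -0.43 (SE 0.16, adjusted p = 0.056). It passed without P. umbellatus replicate 1 (-0.53, adjusted p = 0.0436), replicate 2 (-0.20, adjusted p = 0.0128) or replicate 3 (-0.59, adjusted p = 0.0119).

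The receptor values after P. umbellatus came from libraries in which GC-rich genes as a class were lower. Whether library preparation or treatment lies behind this was not tested. The main transcripts of 8 of the 10 members have between 61.2% and 68% GC, those of SEMA3C and NRP1 37.1% and 44.3%. Among members with 61.2% to 62.1% GC, SEMA4B was at -0.14, SEMA4C at -1.28, PLXNB1 at -0.92 and PLXNA1 at -0.43. The median of all genes with 60 to 70% GC in the P. umbellatus libraries of Huh7, -0.67, lay between the values of PLXNB2 and PLXNA1. After correction for GC content and length in each library, the log2 fold change was 0.01 (adjusted p = 0.906) for PLXNB2, 0.19 (adjusted p = 0.00836) for PLXNA1, 0.41 (adjusted p = 0.0301) for SEMA4B and -0.33 (adjusted p = 0.0152) for PLXNB1. SEMA6B and SEMA4C kept their direction and passed, as given above, and NRP1 went from -0.08 (adjusted p = 0.286) to -0.28 (adjusted p = 0.00203).

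**Figure D4:**
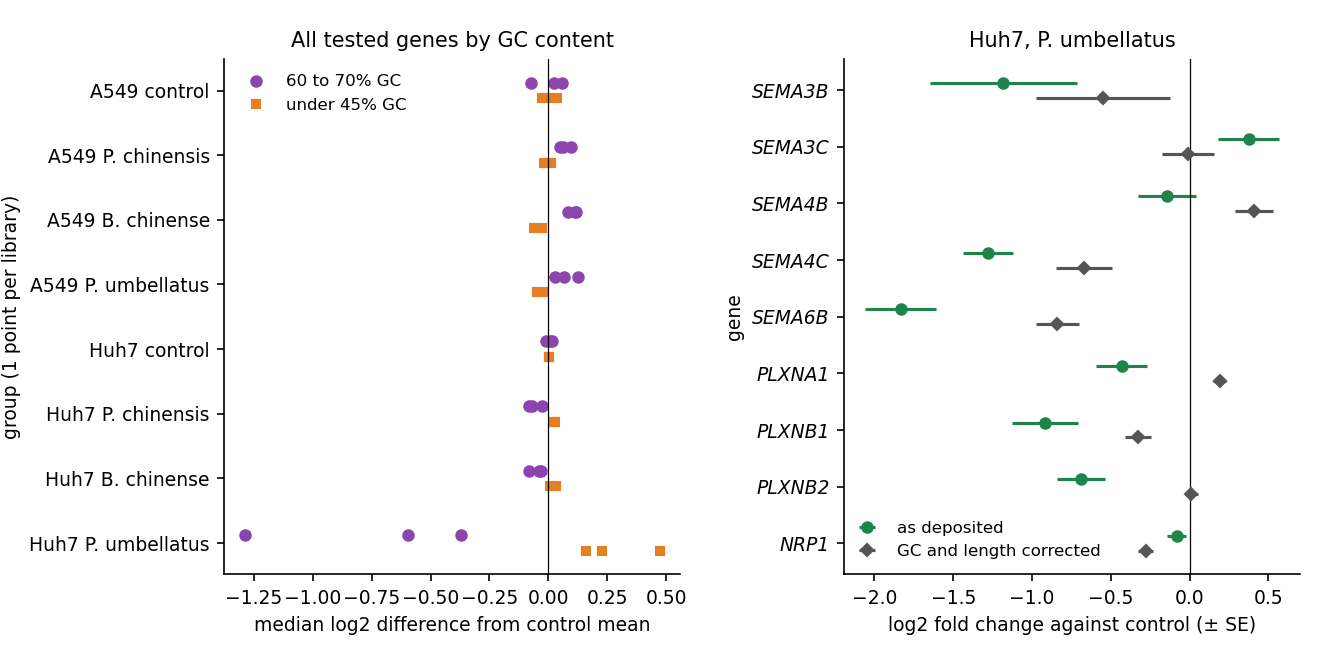
Left, the median log2 difference of each library from the mean of its line's controls, for all tested genes with 60 to 70% GC (circles) and under 45% GC (squares), 1 point of each kind per library. Right, the log2 fold change (± SE) of 9 genes after P. umbellatus in Huh7 before and after correction for GC content and length. The 3 P. umbellatus libraries of Huh7 stand alone at -0.60, -1.29 and -0.37 for GC-rich genes, and PLXNB2 moves from -0.69 to 0.01.

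After P. chinensis the medians of the GC classes were -0.06 and 0.02, and the receptors of Huh7 moved less. PLXNB1 was at 149, 153 and 142 CPM and PLXNB2 at 205, 213 and 224 CPM, each group below all controls. Their log2 fold changes of -0.45 (SE 0.20, adjusted p = 0.146) and -0.23 (SE 0.15, adjusted p = 0.32) did not pass in the fit of all 12 libraries, whose spread includes P. umbellatus replicate 2. Without that library the same values had adjusted p of 0.00013 and 0.0055. With the correction PLXNB1 was at -0.33 (adjusted p = 0.00653) and PLXNB2 at -0.10 (adjusted p = 0.0848). After B. chinense the log2 fold changes of PLXNB1, PLXNB2 and PLXNA1 were -0.10, -0.10 and 0.00 and none passed.

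NRP1 fell slightly after P. chinensis in Huh7. It was at 344, 332 and 346 CPM in controls, 287, 289 and 269 CPM after P. chinensis, 311, 313 and 297 after B. chinense and 338, 315 and 313 after P. umbellatus. The P. chinensis and B. chinense libraries lay below all controls and the P. umbellatus libraries overlapped them. This gave log2 fold changes of -0.27 (SE 0.06, adjusted p = 0.00545), -0.15 (SE 0.06, adjusted p = 0.296) and -0.08 (SE 0.06, adjusted p = 0.286).

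PLXNB3 was near absence in Huh7, where its rise in A549 has no counterpart to compare. The 12 libraries held 14 counts together. P. chinensis had 4, 1 and 6 of these, B. chinense 0, 1 and 0, P. umbellatus 0 in each and control 2, 0 and 0, of which most are at or under the limit of 3 counts set for detection, so no fold is given.

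By count, 1 of 9 members was called higher and 3 lower after P. chinensis in Huh7, against 10.5% and 10.5% of all genes. After P. umbellatus none was higher and 4 were lower, against 19.3% and 17.8% of all genes. At an unadjusted p under 0.05 there were 6 members, against 3517 genes higher and 3107 lower of the 13875 tested. Without P. umbellatus replicate 3 the test called 7 members. Over all genes, leaving out 1 library at a time gave 3250 to 6362 calls, against 5138 in the main fit. After B. chinense no member passed by edgeR, against 0.519% and 0.757% of all genes. At an unadjusted p under 0.05 there were 2 members, against 838 genes higher and 871 lower, and DESeq2 called 1 member and 515 genes. The median log2 fold change of the 9 was -0.23 for P. chinensis, -0.10 for B. chinense and -0.69 for P. umbellatus, against 0.01, 0.00 and 0.03 over all genes.

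The direct comparisons in Huh7 called SEMA3C higher after P. chinensis than after B. chinense by 0.76 on the log2 scale (SE 0.19, adjusted p = 0.0318), where 7.81% of all genes differed. That call was lost, with adjusted p between 0.0509 and 0.134, without any 1 of the P. chinensis libraries, B. chinense replicate 2 or 3, or control replicate 2 or 3. SEMA6B was lower after P. chinensis than after B. chinense by a log2 difference of -0.76 (SE 0.22, adjusted p = 0.057). Between P. chinensis and P. umbellatus 35.4% of all genes differed, and 4 of 9 members did. SEMA3B was higher after P. chinensis by 1.70 (SE 0.46, adjusted p = 0.0142), SEMA4C by 0.64 (SE 0.16, adjusted p = 0.00971) and PLXNB2 by 0.46 (SE 0.15, adjusted p = 0.0343), and NRP1 was lower, -0.19 (SE 0.06, adjusted p = 0.0243). After the correction for GC content none of these 4 passed, at 1.15, 0.07, -0.11 and 0.01. The correction called 3 others in their place, SEMA3C (0.23 before and 0.63 after, adjusted p = 0.0138), SEMA6B (0.24 and -0.63, adjusted p = 0.00622) and PLXNA1 (0.33 and -0.15, adjusted p = 0.0233). Over all 13875 genes it called 3389, against 4907 without it. Without 1 of the P. chinensis libraries PLXNB2 had adjusted p between 0.0631 and 0.0985 and NRP1 between 0.0538 and 0.102, and without P. umbellatus replicate 1 NRP1 had 0.0638.

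The change of PLXNB2 differed between the lines with every herb. The change in A549 minus that in Huh7 was 1.04 on the log2 scale (SE 0.17, adjusted p = 0.000105) after P. chinensis, 0.91 (SE 0.17, adjusted p = 0.000863) after B. chinense and 1.54 (SE 0.17, adjusted p = 1.42e-06) after P. umbellatus. With the correction for GC content and length these were 0.81, 0.71 and 0.72, all of which passed. After P. chinensis 2 of 9 members differed, PLXNB2 and NRP1, against 19.6% of all genes, and after B. chinense PLXNB2 alone was called, against 11.6%. After P. umbellatus 6 of 9 did, against 34.4%. With the correction 2 members did, and 3184 of 12924 genes, against 4447 genes without it. The P. chinensis count rose to 5 when P. umbellatus replicate 2 of Huh7 was left out. Over all genes, leaving out 1 library at a time gave 2120 to 3515 for P. chinensis, against 2529 in the main fit.

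Among the other 21 genes of the family, 17 were tested in A549 and 18 in Huh7. In A549 7 were called higher and 2 lower after P. chinensis, 6 and 3 after B. chinense and 5 and 2 after P. umbellatus, where the shares of all genes were 15.8% higher and 17.1% lower, 13.1% and 15%, and 13.4% and 14.8%. Their median log2 fold change after P. chinensis was 0.48 in A549 and 0.32 in Huh7, against 0.01 over all genes in each. PLXNA3, an A-type receptor, was at 11.9, 13.4 and 9.64 CPM in controls and had log2 fold changes of 0.92 (adjusted p = 0.000171), 0.88 (adjusted p = 0.000365) and 0.71 (adjusted p = 0.00178). PLXNA4 and SEMA7A, with means of 14.2 and 7.8 counts, rose after P. chinensis by 1.46 (adjusted p = 0.00577) and 1.21 (adjusted p = 0.0221) on the log2 scale. In Huh7 3 were higher and 3 lower after P. chinensis, 1 and 0 after B. chinense and 3 and 1 after P. umbellatus, where the shares of all genes were 10.5% higher and 10.5% lower, 0.519% and 0.757%, and 19.3% and 17.8%. NRP2, the neuropilin that favours SEMA3F, was at 14.1, 13.6 and 12 CPM in the Huh7 controls and rose with all 3 herbs, with log2 fold changes of 1.63 (adjusted p = 6.56e-07), 0.61 (adjusted p = 0.0114) and 0.74 (adjusted p = 0.000714). PLXND1, the receptor of SEMA3E, fell after P. chinensis (-0.97, adjusted p = 0.00715) and P. umbellatus (-1.21, adjusted p = 0.00248) in Huh7. SEMA3D fell after P. chinensis in Huh7 (-0.71, adjusted p = 0.0117). The P. umbellatus values of Huh7 in this paragraph are without the correction for GC content and length, in libraries whose GC-rich genes were lower.

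Genes that act beside or below the plexins were taken from 4 lists. After P. chinensis in A549, 2 of 13 tested receptor partners and other ligands rose and 3 fell, 3 of 16 GTPases and their regulators rose and 5 fell, 4 of 18 cytoskeletal effectors and kinases rose and 1 fell, and 1 of 7 genes of processing and trafficking rose, against 15.8% and 17.1% of all genes. The medians of the 4 lists were 0.15, -0.10, 0.14 and 0.04 on the log2 scale, against 0.01 over all genes. DPYSL4, a collapsin response mediator, had a log2 fold change of 1.39 (adjusted p = 8.21e-07). The MICAL enzymes, which oxidise actin when plexins signal, had 0.91 (MICAL1, adjusted p = 0.00652) and 0.80 (MICAL2, adjusted p = 0.00133). GIPC1, an adaptor of plexins and neuropilins, had 0.40 (adjusted p = 0.00137). The adhesion molecule CHL1 fell by 1.19 and RND1, a GTPase that binds plexins, by 1.02 on the log2 scale, with adjusted p of 0.039 and 0.00261. In the same order of lists, 2, 3, 3 and 2 genes rose and 0, 4, 1 and 0 fell after B. chinense, against 13.1% and 15% of all genes, and 2, 3, 5 and 2 rose and 0, 4, 1 and 0 fell after P. umbellatus, against 13.4% and 14.8%.

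In Huh7 P. chinensis gave a call in 0 of 11 receptor partners, and 5 of 16 GTPases and regulators rose and 4 fell, 2 of 17 effectors rose and 3 fell, and 2 of 7 processing genes rose and 1 fell, against 10.5% and 10.5% of all genes. The medians were 0.00, 0.11, -0.02 and 0.03, against 0.01 over all genes. RND1 moved up here, with a log2 fold change of 2.05 (adjusted p = 0.000171). RRAS and MRAS, Ras-type GTPases on which plexins act, rose by 1.22 (adjusted p = 0.000485) and 1.04 (adjusted p = 0.000923). DPYSL3 rose by 2.12 on the log2 scale at a mean of 13.7 counts, and FES, a kinase that plexins can activate, fell by 0.65. The protease ADAM17 had a log2 fold change of 0.37 (adjusted p = 0.00554). Treatment by B. chinense gave 1 call over the 4 lists, against 0.519% higher and 0.757% lower of all genes. It was FARP2, an exchange factor for Rac, which rose by 0.42 on the log2 scale (adjusted p = 0.00826) and is named after its values were seen. After P. umbellatus 3, 7, 2 and 3 genes rose and 3, 5, 4 and 2 fell, against 19.3% and 17.8% of all genes, in libraries whose values moved with GC content as given above.

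Finally, the genes whose log2 CPM followed that of a member most closely over the 12 libraries of a line were listed for the 3 members with the largest changes after P. chinensis, out of the genes with 50 or more counts on average. The libraries share their groups and controls, so the coefficients describe these libraries only. In A549 PLXNB3 was followed by TIGAR (Pearson r 0.989) and CYFIP2 (0.988), PLXNB2 by AHNAK2 (0.992) and EXOC7 (0.989), and SEMA6B by WDR77 (0.934) and CHAMP1 (0.882). In Huh7 SEMA6B was followed by TGIF2 (0.979) and H1-4 (0.976), SEMA4C by MAPK3 (0.953) and TMEM82 (0.948), and SEMA3C by LIMA1 (0.924) and FILIP1L (0.906).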

How the data were processed

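RNA of 24 libraries was measured, with 3 replicates in each of 8 groups (2 lines, each as control or with 1 of 3 herbs). The authors made stranded, ribosome-depleted libraries and estimated counts with kallisto (GRCh38.p13, per the labels and methods), and the values deposited are these estimated counts, whole numbers for each gene and not scaled by library size; how transcripts were summed is not given in the sources used here. The table holds 14585 genes, of which 14584 matched a symbol. FastQC is named among the tools of the submitters' processing notes. Totals ran from 6803704 to 24345541 counts, and the precision was taken from the spread between replicates.

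Counts were analysed in R 4.3.3 with edgeR 4.0.16. In each line, genes with a mean above 5 counts over 12 libraries were scaled by TMM and entered 1 quasi-likelihood fit, where each group had its own coefficient (prior count 2). Adjusted p-values are Benjamini-Hochberg over all genes tested, two-sided, with a threshold of 0.05. Each SE was worked out as the absolute log2 fold change divided by the square root of the F statistic of its test. It is therefore approximate. Differences between the lines were interaction contrasts in a fit of 24 libraries. The fits were tested on simulated data. The members and gene lists were chosen with earlier results of these data known. Besides the 10 members, the text names per list and line at most the 3 genes with the largest change with P. chinensis among those called, and 2 genes most alike to each of the 3 members that changed most; SEMA6A and SEMA3D were added as the genes nearest to the limit of 5 counts in A549. Replicate numbers were checked for pairing and 0 of 18 same-number pairs in either line had a correlation of deviations over 0.1, so they were not taken as pairs. Alternatives were DESeq2 1.42.0, its size factors, upper quartile scaling, limma 3.58.1 voom with sample weights, other filters, a replicate block, a loess correction for GC content and transcript length (span 0.3), only the 6 libraries compared, and leaving out each library. Positions and lengths came from GENCODE v44, promoters from RefSeq GRCh38.p14.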

Additional observations from a re-analysis of the deposited data

Results flagged for a closer look

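For 9 changes the difference between the lines itself passed the interaction test, and these are singled out on that ground. With P. chinensis the change in A549 minus the change in Huh7 was 1.04 for PLXNB2 and 0.36 for NRP1 on the log2 scale, and with B. chinense it was 0.91 for PLXNB2. With P. umbellatus it was 1.54 for PLXNB2, 1.31 for SEMA4C, 0.98 for PLXNB1, 0.92 for SEMA4B, 0.75 for PLXNA1 and 0.33 for NRP1. After correction for GC content and transcript length the P. umbellatus differences were 0.72 for PLXNB2 and 0.47 for NRP1, which passed, and 0.60 for SEMA4C, 0.27 for PLXNB1, 0.28 for SEMA4B and -0.02 for PLXNA1, which did not. The 3 herbs were each compared with the same controls.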

How the results depend on the processing

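Of 338 recomputed counts of members, 299 stayed within 1.5 times the main count. Of 1899 recomputed fold changes, 1743 kept their direction and their side of the threshold, 83 lost the call, 36 gained it and 37 changed sign. For the direct comparisons and the differences between the lines, this tally of fold changes holds only members called in the main fit. SEMA3B for P. chinensis against B. chinense in A549 was added, and PLXNB3 between the untreated lines was left out. Calls gained or signs changed by other members in those comparisons are not in the tally. The cause of the changes below was not tested.

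In A549, P. chinensis against P. umbellatus called 1 member with DESeq2 and 1 with the GC and length correction (0 by edgeR). Over all 13633 genes these settings called 607 and 533 (410 by edgeR). In Huh7, P. chinensis against control called 7 members with only the 6 libraries compared (4 in the fit of 12), B. chinense against control 1 with DESeq2, 2 with voom, 1 with the correction and 2 with 6 libraries (0), and P. umbellatus against control 2 with 6 libraries (4). In the same order, the calls over all 13875 genes were 5860 (2901) for P. chinensis and 515, 1229, 840 and 1122 (177) for B. chinense. For P. umbellatus they were 1227 (5138). P. chinensis against B. chinense called 2 with DESeq2, 4 with voom, 3 with the correction and 3 with 6 libraries (1), and P. chinensis against P. umbellatus 2 with 6 libraries (4). Over all genes these were 1745, 3344, 2382 and 3203 (1083) and 2058 (4907). The change differed between the lines for 4 members with DESeq2 and 7 with voom for P. chinensis (2), for 2 with voom and 5 with the correction for B. chinense (1), and for 2 with the correction for P. umbellatus (6). Over all 12924 genes these were 2891 and 4017 (2529), 2483 and 2306 (1499), and 3184 (4447). Leaving out each library gave 3 to 6 members for B. chinense in A549, 0 to 1 for B. chinense in Huh7 (1 without P. umbellatus replicate 2 or 3), 4 to 7 for P. umbellatus in Huh7, 0 to 3 for P. chinensis against B. chinense in Huh7 (3 without P. umbellatus replicate 2, 2 without replicate 3), 2 to 8 for P. chinensis against P. umbellatus in Huh7 (8 without P. umbellatus replicate 3, 2 without any 1 of the P. chinensis libraries), and for differences between the lines 2 to 5 (P. chinensis) and 1 to 2 (B. chinense, 2 without B. chinense replicate 1 or P. umbellatus replicate 2 of Huh7 or B. chinense replicate 3 of A549). In the same order, the calls over all genes ran from 3071 to 3759, from 51 to 909 and from 3250 to 6362. For the direct comparisons in Huh7 they ran from 450 to 2833 and from 3477 to 6153, and between the lines from 2120 to 3515 and from 1128 to 2398.

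Members not called in a direct comparison or between the lines are outside the tally, and some of them changed sign too. As examples, for P. chinensis against P. umbellatus in Huh7 the correction took SEMA4B from 0.34 to -0.16, SEMA6B from 0.24 to -0.63 and PLXNA1 from 0.33 to -0.15. Others of this kind are not listed. Among the fold changes in the tally, signs changed for the following values. In A549 with P. chinensis, SEMA4C was 0.06 with upper quartile scaling and with voom, 0.00 without a filter and with a replicate block, 0.02 with a mean above 50 counts and -0.20 to 0.20 when libraries were left out, PLXNB1 was 0.04 with upper quartile scaling and -0.11 to 0.04, and SEMA3B -0.05 to 0.23. With B. chinense PLXNB1 was -0.04 with voom, -0.08 with the correction and -0.08 to 0.20, NRP1 0.03 with upper quartile scaling, and SEMA4C -0.02 to 0.40. With P. umbellatus SEMA4C was 0.03 with voom and -0.24 to 0.16, and PLXNB1 0.02 with upper quartile scaling and -0.10 to 0.04. In Huh7 PLXNA1 was 0.04 with the correction for P. chinensis and -0.02 to 0.04 for B. chinense. With P. umbellatus the correction gave SEMA3C -0.01, SEMA4B 0.41 (-0.38 to 0.06 when libraries were left out), PLXNA1 0.19 and PLXNB2 0.01. In P. chinensis against P. umbellatus the correction gave PLXNB2 -0.11 and NRP1 0.01, and the PLXNA1 difference between the lines was -0.02 with P. umbellatus.

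The replicate block called 4, 6 and 6 members in A549 and 4, 0 and 5 in Huh7 (P. chinensis first, then B. chinense, then P. umbellatus), against 5, 6 and 7 and 4, 0 and 4 without it. In A549 the block lost SEMA6B after P. chinensis (adjusted p = 0.0508) and P. umbellatus (0.0693), and after B. chinense it lost SEMA3C (0.0537) and called SEMA3B (-0.57, adjusted p = 0.0455), while in Huh7 it called PLXNA1 after P. umbellatus (-0.46, adjusted p = 0.0472). Counts over all genes also moved. B. chinense in Huh7 called 177 genes, 116 with the replicate block and 1229 with voom, P. chinensis in Huh7 2901 and 6325 with voom, P. umbellatus in Huh7 5138 and 1227 with 6 libraries, and P. chinensis against B. chinense 1083 and 3344 with voom in Huh7 and 198, 425 with DESeq2 and 33 with 6 libraries in A549. P. chinensis against P. umbellatus called 410 genes in A549, 230 with 6 libraries, and 4907 in Huh7, 2058 with 6 libraries, and the lines differed for 2529 (P. chinensis) and 1499 (B. chinense) genes, 4017 and 2483 with voom. Upper quartile scaling moved the share of calls that were higher from 48% to 60.5% (P. chinensis) and 46.7% to 58.6% (B. chinense) in A549, from 27.1% to 40.3% for P. chinensis against P. umbellatus in A549 and from 50% to 61.1% for P. chinensis in Huh7. PLXNB3 in Huh7 is limited by its 14 counts.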
